A study of Zea mays with 12 samples.

Results

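The comparison set bract primordia of the *tsh1 tsh4* double mutant of maize against those of its wild type, the inbred line B73, across all 20168 genes listed by the study, in 6 of the 12 sequenced libraries (3 biological replicates per genotype). Cells were laser-microdissected from bract primordia at the uppermost nodes of young ears, at a stage when a ridge had formed but no meristem could yet be seen beside it. The double mutant carried *tsh1-ref*, a *Mutator* transposon insertion joined to a large deletion, and *tsh4-rm*, a *Mutator* insertion in the first intron of *tsh4*. Both alleles had been introgressed repeatedly into B73, and the untreated plants were grown in a greenhouse under long days. Each mutant gene was thus represented by 1 allele. The labels do not say how many plants entered a replicate, so the spread between replicates may include technical variation of capture and amplification. Levels are given as normalized CPM (reads of a gene relative to library size, as scaled by the authors). Values listed for 3 libraries are in the order of their replicate numbers.

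A bract is a leaf that subtends a branch or flower. In the maize inflorescence the bracts below branches and spikelet pairs stop growing as small ridges, and loss of *tasselsheath* genes lets them grow out as leaves while fewer branches form. *tsh1* encodes a GATA zinc-finger transcription factor, and *tsh4* encodes an SBP-box transcription factor of the class that microRNA156 restrains during phase change. Genes that build a leaf (the YABBY, TCP and KANADI families), genes that mark the meristem and organ boundaries, and hormone pathways act side by side in this small domain, so they are described below by role.

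Each library held 57880634 to 80693811 reads on genes in *tsh1 tsh4* and 56502030 to 110703826 in B73. A gene was counted as detected above 3 reads, which correspond to 0.0376 to 0.0517 CPM in *tsh1 tsh4* and 0.0265 to 0.0529 CPM in B73, a limit that covers counting error only. Across all genes, Pearson's r of log2(CPM + 0.1) was 0.970 to 0.986 between *tsh1 tsh4* libraries, 0.984 to 0.991 between B73 libraries and 0.945 to 0.971 between the genotypes. *ZYB15* (GRMZM2G529859), a YABBY gene used as a marker of the suppressed bract, was high in every library. It stood at 1391, 1516 and 1745 CPM in *tsh1 tsh4* and at 1033, 1563 and 1214 CPM in B73, and the genotypes overlapped (log2 fold change 0.30, adjusted p = 0.529 from limma). The meristem gene *kn1* (GRMZM2G017087) was also present, at 103, 234 and 187 CPM in *tsh1 tsh4* and at 168, 157 and 211 CPM in B73. The 13 meristem markers examined together summed to 938 to 1216 CPM in *tsh1 tsh4* and to 1123 to 1299 CPM in B73.

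The mutated genes themselves were the check of the labels. *tsh1* (GRMZM2G325850) was read at 0.502, 0.458 and 0.604 CPM in *tsh1 tsh4*, against 89.6, 60.7 and 52.1 CPM in B73, which gave −6.73 on the log2 scale (SE 0.27, with limma's adjusted p = 6.85e-11). *tsh4* (GRMZM2G307588) was read at 76.6, 43.3 and 60.4 CPM in *tsh1 tsh4*, against 1553, 1359 and 1059 CPM in B73, a log2 fold change of −4.48 (SE 0.23). Neither gene overlapped between the genotypes, and *tsh4* kept a level far above the detection limit in every double mutant library.

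A gene was called differentially expressed where limma's Benjamini-Hochberg adjusted p did not exceed 0.05 and the level changed by 1 or more on the log2 scale in either direction. By this rule 1178 genes (5.84% of those tested) differed between *tsh1 tsh4* and B73. Of these genes, 543 (2.69%) were up-regulated and 635 (3.15%) were down-regulated in *tsh1 tsh4*. The median change was 1.68 on the log2 scale among the up-regulated genes and −1.62 among the down-regulated genes, whereas the median over all genes was −0.01. A change of at least 2 on the log2 scale was reached by 197 genes in each direction. In 1170 of the 1178 genes the libraries of the genotypes did not overlap, a property shared by 22.6% of all genes tested. With 3 libraries per genotype the calling rule nearly requires such separation, so it adds no support to the calls.

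The calls were concentrated among weakly expressed genes. Genes were ranked by mean level and split into 5 equal classes. In the lowest class, up to 1.85 CPM, 13.4% were called, and in the highest class, from 47.3 CPM upward, 1.86% were called. The 75 called genes of that highest class comprised 24 that rose and 51 that fell in *tsh1 tsh4*. At the other extreme, 47 genes were above 3 reads in every *tsh1 tsh4* library and at or below 3 reads in every B73 library, and 28 genes showed the reverse. For the 47 genes the mean level in *tsh1 tsh4* was at least 3.94 to at least 226 times the mean limit of 3 reads in B73, and for the 28 genes the level was at least 4.04-fold to at least 351-fold lower in *tsh1 tsh4*. A pseudocount of 1 in place of 0.1 reduced the count of called genes to 650, and keeping only genes with a mean of at least 1 CPM reduced it to 763.

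**Figure D1:**
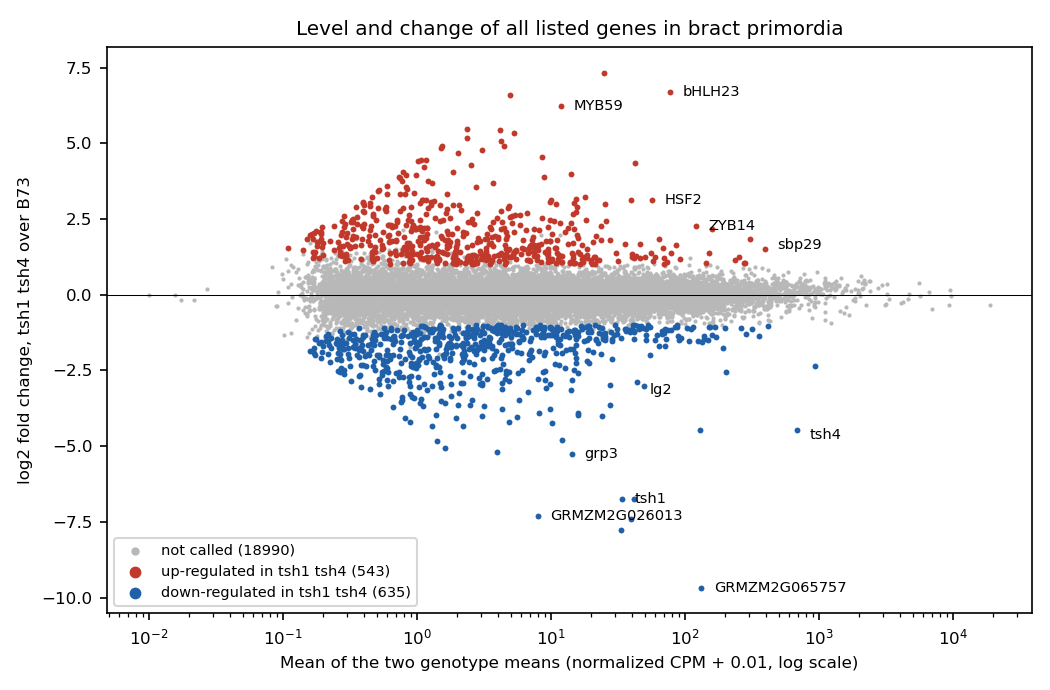
Log2 fold change of each gene in *tsh1 tsh4* over B73 (vertical axis) against the mean of the genotype means in normalized CPM plus 0.01 (horizontal axis, log scale); red points are the 543 up-regulated genes, blue points the 635 down-regulated genes and grey points the 18990 genes not called. Calls thin out toward high levels, where *tsh4* and *sbp29* stand apart.

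Calls in each gene list below are to be read beside the 5.84% called over all genes tested, a share that was higher among weakly expressed genes. In short lists a single call changes the share strongly. The lists of OVATE, *WUSCHEL*-related homeobox, aquaporin, benzoxazinoid, glutathione transferase and *OCL* genes were added after values were seen. Their shares are therefore not independent of the calls. SBP-box genes changed in both directions. This family, whose members control phase change, branching and glume form, had 20 listed members, of which 3 rose and 3 fell, and its median log2 fold change was 0.02. *sbp29* (GRMZM2G067624) stood at 510, 534 and 722 CPM in *tsh1 tsh4*, against 195, 199 and 214 CPM in B73 (log2 fold change 1.52, SE 0.20). *tga1* (GRMZM2G101511), which controls the hard casing of teosinte fruits, stood at 20.4, 7.66 and 12.4 CPM in *tsh1 tsh4* and at 3.223, 1.96 and 3.32 CPM in B73 (log2 fold change 2.14, SE 0.31). Both genes were higher in every double mutant library than in any B73 library. The gene listed as *sbp3* under GRMZM2G101499 also rose, by 1.28 on the log2 scale.

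The falls of the family were those of *tsh4* itself, *sbp2* and *sbp21*. *sbp2* (GRMZM2G168229) was almost lost, with 0.025, 0.063 and 0.138 CPM in *tsh1 tsh4* and 2.62, 1.27 and 2.16 CPM in B73 (log2 fold change −3.59, SE 0.39). *sbp21* (GRMZM2G148467) averaged 92.0 ± 31.3 CPM in *tsh1 tsh4* and 226 ± 68.8 CPM in B73 (SD, n = 3 each), a log2 fold change of −1.32 that fell just short of the fold threshold without *tsh1 tsh4* replicate 2. *ub2* (GRMZM2G160917) and *ub3* (GRMZM2G460544), the closest relatives of *tsh4* and its partners in branching, were not called. *ub2* averaged 73.5 ± 29.6 CPM in *tsh1 tsh4* and 58.1 ± 11.8 CPM in B73, and *ub3* averaged 58.3 ± 24.95 CPM in *tsh1 tsh4* and 51.6 ± 16.1 CPM in B73 (SD, n = 3 each). Both overlapped between the genotypes. Their small differences turned negative without *tsh1 tsh4* replicate 1, and that of *ub3* also without B73 replicate 3. Among 5 other genes named as GATA factors, 1 fell: *GATA28* (GRMZM2G101058) had 0.125, 0.047 and 0.207 CPM in *tsh1 tsh4* and 2.04, 1.41 and 0.822 CPM in B73.

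Of 7 YABBY genes, which specify lateral organ identity and blade growth, 3 rose, none fell and 4 were not called, with a median log2 fold change of 0.32. *ZYB14* (GRMZM2G005353) stood at 270, 157 and 169 CPM in *tsh1 tsh4*, against 28.3, 52.9 and 41.9 CPM in B73 (log2 fold change 2.28, SE 0.22). *YAB3* (GRMZM2G106204) stood at 11.9, 8.24 and 11.5 CPM in *tsh1 tsh4* and at 1.62, 2.64 and 2.83 CPM in B73 (log2 fold change 2.13, SE 0.24). In both genes the lowest double mutant library was well above the highest B73 library. *DL1* (GRMZM2G088309), of the DROOPING LEAF class that in rice builds the midrib, stood at 17.9, 7.87 and 7.98 CPM in *tsh1 tsh4* and at 4.59, 2.68 and 3.48 CPM in B73 (log2 fold change 1.54, SE 0.29). The summed level of the 7 genes was 1978 to 2362 CPM in *tsh1 tsh4* and 1352 to 1978 CPM in B73, most of it from *ZYB15*.

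TCP transcription factors, which set the balance of cell division and maturation in leaves, had 5 listed members, of which 2 rose and none fell. The gene listed as *TCP5* (GRMZM2G115516) had 7.96, 6.51 and 8.07 CPM in *tsh1 tsh4* and 1.63, 2.06 and 1.42 CPM in B73 (log2 fold change 2.09, SE 0.24). *TCP30* (GRMZM2G166946) had 2.52, 1.52 and 2.43 CPM in *tsh1 tsh4* and 0.097, 0.141 and 0.240 CPM in B73 (log2 fold change 3.13, SE 0.46). *SRS2* (GRMZM2G042407), of the SHI-related family that in Arabidopsis promotes auxin synthesis in young organs, rose too, with 5.58, 2.54 and 2.62 CPM in *tsh1 tsh4* and 0.097, 0.106 and 0.120 CPM in B73 (log2 fold change 4.05, SE 0.33). In all 3 genes every double mutant library was above every B73 library.

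OVATE family proteins, known from other plants as regulators of organ shape, split by gene. Among 8 listed members *OFP24* (GRMZM2G100133) rose, at 14.8, 20.5 and 18.8 CPM in *tsh1 tsh4* and 1.404, 1.80 and 2.84 CPM in B73 (log2 fold change 3.14, SE 0.37). *OFP29* (GRMZM2G127431) fell, at 3.26, 3.62 and 4.55 CPM in *tsh1 tsh4* and 18.97, 18.2 and 20.04 CPM in B73 (log2 fold change −2.31, SE 0.20). The replicates of *OFP29* were close to each other in both genotypes. Growth-regulating factors, which act with coactivators to sustain cell proliferation in leaves, had 15 members with 1 rise and 1 fall (13.3% called). Their median log2 fold change was 0.12 (9 positive and 6 negative). *GRF14* (GRMZM2G098594, 0.95), *GRF2* (GRMZM2G099862, 0.93) and the gene listed as *GRF1* under GRMZM2G178261 (0.82) were higher in *tsh1 tsh4* without overlap. With adjusted p of 0.00353, 0.00101 and 0.00515 from limma, they missed only the fold threshold. *GRF13* (GRMZM2G018414) fell to 14.02 ± 3.09 CPM in *tsh1 tsh4*, against 34.0 ± 5.67 CPM in B73 (SD, n = 3 each). The rise of *GRF9* (GRMZM2G124566), by 1.02 on the log2 scale, passed the threshold by little. It was no longer called without B73 replicate 2 (0.97), B73 replicate 3 (0.84) or *tsh1 tsh4* replicate 1 (0.68). The cyclin *cycD1* (GRMZM2G006721), of the D class that starts the division cycle, was the single called gene among 11 cyclins (9.09%). It averaged 63.8 ± 12.4 CPM in *tsh1 tsh4* and 28.2 ± 8.70 CPM in B73 (SD, n = 3 each). *cycD4* (GRMZM2G133413) was also higher in *tsh1 tsh4* without overlap. Its log2 fold change of 0.98 (adjusted p = 0.00307 from limma) missed only the fold threshold. Of the 11 cyclins 9 had a positive and 2 a negative log2 fold change.

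Polarity and leaf initiation genes fell in part. *mwp1* (GRMZM2G082264), a KANADI gene that specifies the lower leaf surface, stood at 24.4, 41.1 and 52.7 CPM in *tsh1 tsh4* and at 88.7, 105 and 120 CPM in B73 (log2 fold change −1.47, SE 0.26). The HD-ZIP III genes *rld1* and *rld2*, which specify the upper surface, were not called. *TE1* (GRMZM2G085113), an RNA-binding protein that limits leaf initiation, stood at 46.9, 55.8 and 60.3 CPM in *tsh1 tsh4* and at 162, 133 and 181 CPM in B73 (log2 fold change −1.54, SE 0.17). Among 7 *WUSCHEL*-related homeobox genes 2 fell and none rose, with a median log2 fold change of −0.86. *wox9B* (GRMZM2G031882) averaged 6.62 ± 0.975 CPM in *tsh1 tsh4* and 15.4 ± 3.32 CPM in B73 (SD, n = 3 each). *ns1* (GRMZM2G069028), which recruits founder cells of the leaf margin, had a log2 fold change of −1.15 and an adjusted p of 0.0297 from limma. With the replicate number as a block that adjusted p was 0.0615. It was 0.153 and 0.0873 without B73 replicates 1 and 2, and 0.158 and 0.0969 without *tsh1 tsh4* replicates 2 and 3, so the call of *ns1* depended on these libraries.

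**Figure D2:**
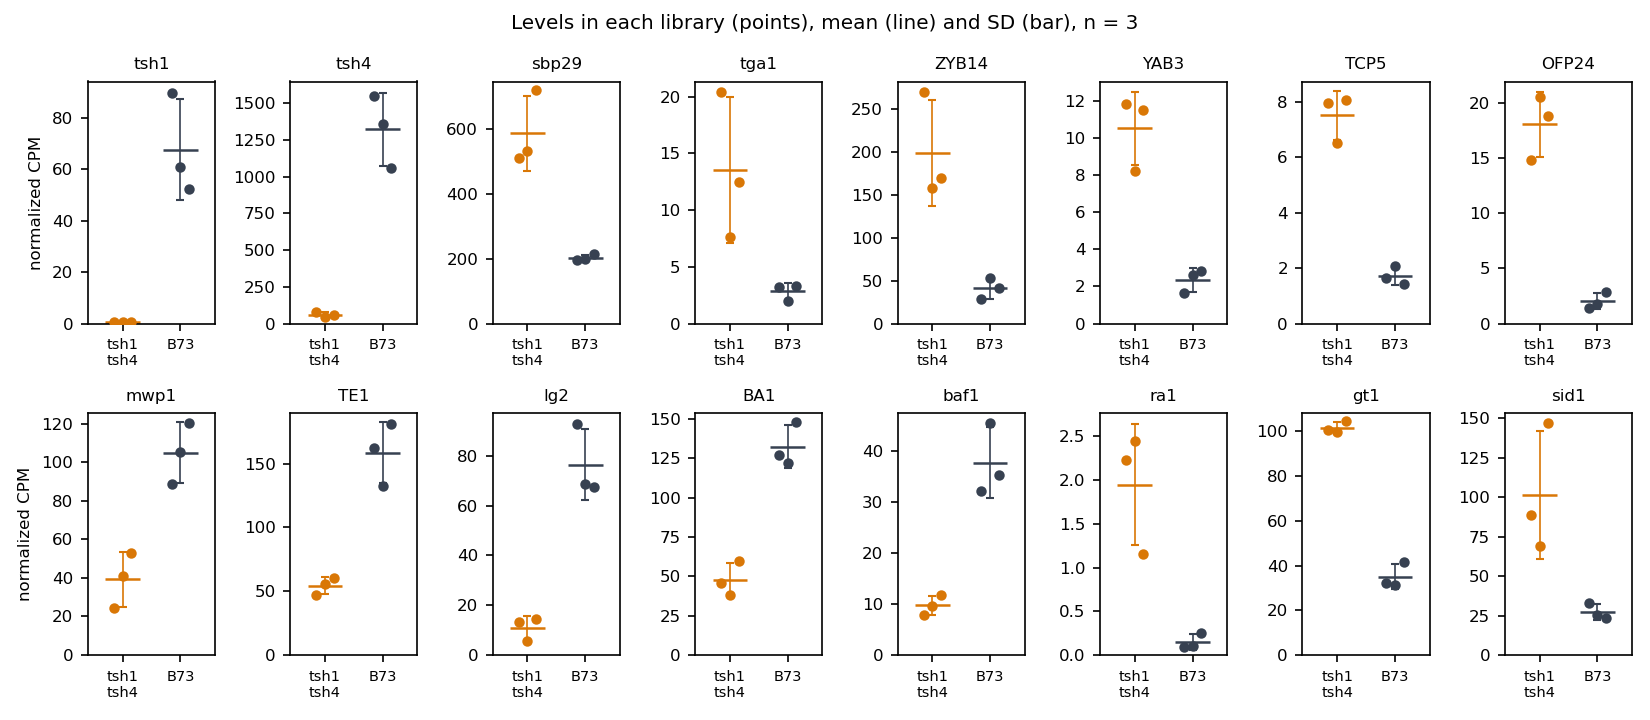
Normalized CPM (vertical axes, each starting at 0) of 16 genes in each of the 3 *tsh1 tsh4* libraries (orange, left) and 3 B73 libraries (dark grey, right); horizontal lines are means and bars are SDs. In each panel the genotypes do not overlap, as for *lg2* at 5.53 to 14.3 CPM in *tsh1 tsh4* and 67.5 to 92.8 CPM in B73.

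*lg2*, *BA1* and *baf1* fell. *lg2* (GRMZM2G060216), a bZIP factor that positions the ligule at the boundary of blade and sheath, stood at 13.2, 5.53 and 14.3 CPM in *tsh1 tsh4*, against 92.8, 68.7 and 67.5 CPM in B73, which gave −2.88 on the log2 scale (SE 0.29). *BA1* (GRMZM2G397518), the *barren stalk1* bHLH factor needed to start axillary meristems, stood at 45.6, 38.0 and 59.7 CPM in *tsh1 tsh4* and at 127, 122 and 148 CPM in B73 (log2 fold change −1.49, SE 0.22). *baf1* (GRMZM2G072274), an AT-hook protein that acts with *BA1*, stood at 7.91, 9.52 and 11.7 CPM in *tsh1 tsh4* and at 32.3, 45.6 and 35.4 CPM in B73 (log2 fold change −1.95, SE 0.25). These 3 genes did not overlap between the genotypes. The paper places *ba1* and *baf1* outside the suppressed bract, in a neighbouring boundary domain. It considers that such cells may have entered the captures at their margins. For LG2 protein it reports little or none in the bract region of the *tsh1* and *tsh4* single mutants, with most of the boundary signal kept. In bulk captures such as these, fewer cells that express a gene and less of its RNA per cell cannot be told apart. The 6 axillary meristem and boundary markers examined summed to 111 to 183 CPM in *tsh1 tsh4* and to 281 to 334 CPM in B73. Of these 6 markers 2 fell (*BA1* and *baf1*), *ra1* rose and 3 were not called. Among the 3, *ra3* (GRMZM2G014729), a trehalose phosphate phosphatase that limits branching, stood at 5.67, 4.11 and 4.93 CPM in *tsh1 tsh4* and at 11.3, 7.84 and 9.69 CPM in B73. The genotypes did not overlap in *ra3*, and its log2 fold change of −0.95 (adjusted p = 0.0064 from limma) missed only the fold threshold. *bif2* and *zfl1* had log2 fold changes of −0.06 and −0.57.

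*ra1* (GRMZM2G003927), a zinc-finger factor that makes spikelet pair meristems determinate, stood at 2.23, 2.45 and 1.16 CPM in *tsh1 tsh4* and at 0.088, 0.106 and 0.257 CPM in B73 (log2 fold change 3.03, SE 0.39). *gt1* (GRMZM2G005624), an HD-ZIP factor that holds back lateral buds and floral organs, stood at 100.5, 99.9 and 104 CPM in *tsh1 tsh4* and at 32.4, 31.1 and 41.6 CPM in B73 (log2 fold change 1.54, SE 0.18). *sid1* (GRMZM2G176175), an AP2 factor of inflorescence meristem fate, stood at 88.5, 69.0 and 147 CPM in *tsh1 tsh4* and at 33.2, 25.6 and 23.5 CPM in B73 (log2 fold change 1.83, SE 0.23). Its relative *ids1* (GRMZM5G862109) averaged 160 ± 47.6 CPM in *tsh1 tsh4* and 250 ± 18.3 CPM in B73 (SD, n = 3 each). The log2 fold change of *ids1* was −0.68 (adjusted p = 0.0404 from limma), below the fold threshold.

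Meristem homeobox genes of the KNOX family moved little. Of 9 listed members 1 fell (11.1%) and none rose, and the median log2 fold change was −0.21. The called gene was *gnarley1* (GRMZM2G452178), at 41.4, 71.1 and 89.5 CPM in *tsh1 tsh4* and 124, 118 and 179 CPM in B73 (log2 fold change −1.10). It was not called without B73 replicate 3 (−0.91) or without *tsh1 tsh4* replicate 1 (−0.79). *kip1* (GRMZM2G163761), a BELL homeobox partner of KNOX proteins, rose to 114, 44.7 and 54.6 CPM in *tsh1 tsh4*, against 25.1, 18.6 and 18.3 CPM in B73 (log2 fold change 1.67, SE 0.33). MADS-box genes, which specify floral organs and meristems, had 2 falls and no rise among 19 members (10.5% called, against 5.84% of all genes tested). Their median log2 fold change was −0.31. *zmm31* (GRMZM2G071620) averaged 17.5 ± 5.79 CPM in *tsh1 tsh4* and 42.0 ± 4.23 CPM in B73 (SD, n = 3 each). *Silky1* (GRMZM2G139073), a stamen and lodicule gene, was below 1 CPM in all 6 libraries. Its call was lost without B73 replicate 1 (adjusted p = 0.136 from limma), B73 replicate 2 (0.0824) or *tsh1 tsh4* replicate 1 (0.0801). *ZCN14* (GRMZM2G373928), of the *CENTRORADIALIS* and *FT* family of flowering regulators, had 1.74, 1.80 and 2.57 CPM in *tsh1 tsh4* and 0.115, 0.106 and 0.223 CPM in B73 (log2 fold change 3.12, SE 0.31). *ZAR1* (GRMZM2G446201), a small protein gene that promotes organ size, rose to 2.97, 1.29 and 1.12 CPM in *tsh1 tsh4*, against 0.592, 0.264 and 0.308 CPM in B73.

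Of 16 Aux/IAA genes, whose products hold auxin response factors inactive until auxin triggers their breakdown, 3 rose and 3 fell, and the median log2 fold change was −0.62. *AUX18* (GRMZM2G104176) stood at 246, 172 and 241 CPM in *tsh1 tsh4* and at 73.5, 89.5 and 87.6 CPM in B73 (log2 fold change 1.38, SE 0.17). *AUX36* (GRMZM2G359924) averaged 27.8 ± 6.83 CPM in *tsh1 tsh4* and 9.60 ± 1.36 CPM in B73 (SD, n = 3 each). *IAA12* (GRMZM2G128421) had 2.22, 1.77 and 2.07 CPM in *tsh1 tsh4* and 0 reads in all 3 B73 libraries, so it was at least 46.3-fold higher in *tsh1 tsh4* than the mean limit of 3 reads. The falls were those of *AUX17* (GRMZM2G079957, log2 fold change −1.27), *AUX3* (GRMZM2G004696, −1.23) and the weakly expressed *AUX32* (GRMZM2G152796, −2.42). With limma no call was made among 17 auxin response factors, nor with edgeR, and 5 of them had an unadjusted p under 0.05. *ARF11* (GRMZM2G056120) stood at 111, 108 and 113 CPM in *tsh1 tsh4* and at 51.6, 58.5 and 64.9 CPM in B73, without overlap, and its log2 fold change of 0.93 (adjusted p = 0.00106 from limma) missed only the fold threshold. The family's log2 fold changes ran from −1.12 to 0.93 with a median of −0.07.

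Of the gibberellin genes, 3 are named here and all 3 fell, a choice that is not independent of their values. *an1* (GRMZM2G081554), the enzyme that opens gibberellin synthesis, had 1.12, 2.42 and 1.604 CPM in *tsh1 tsh4* and 5.81, 5.83 and 5.02 CPM in B73 (log2 fold change −1.70, SE 0.26). *D8* (GRMZM2G144744), a DELLA repressor of gibberellin response, stood at 215, 162 and 228 CPM in *tsh1 tsh4* and at 564, 516 and 458 CPM in B73 (log2 fold change −1.35, SE 0.17). *d3* (GRMZM2G093195), a later oxidase of the pathway, averaged 0.448 ± 0.265 CPM in *tsh1 tsh4* and 1.596 ± 0.851 CPM in B73 (SD, n = 3 each). The call of *d3* was lost without B73 replicate 1 (adjusted p = 0.136 from limma) and without *tsh1 tsh4* replicate 2 (0.067) or 3 (0.121).

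Of 8 PYL abscisic acid receptors 2 fell and none rose, with a median log2 fold change of 0.08 (4 positive and 4 negative). Both called genes were weakly expressed. The summed level of the 8 genes was 257 to 295 CPM in *tsh1 tsh4* and 258 to 271 CPM in B73. *PYL5* (GRMZM2G057959) had 1.03, 0.584 and 0.276 CPM in *tsh1 tsh4* and 3.58, 2.38 and 1.81 CPM in B73, and *PYL7* (GRMZM2G144224) fell by 2.41 on the log2 scale. Of 10 cytokinin response regulators 1 rose and 2 fell, with a median log2 fold change of −0.66 (1 positive and 9 negative). The summed level of the 10 genes was 126 to 127 CPM in *tsh1 tsh4* and 137 to 153 CPM in B73. *crr2* (GRMZM2G392101) rose to 4.25, 9.81 and 4.41 CPM in *tsh1 tsh4*, against 1.298, 1.06 and 2.02 CPM in B73 (log2 fold change 1.94, SE 0.33). *RR6* (GRMZM2G129954, log2 fold change −1.41) and *RR7* (GRMZM2G096171, −1.19) fell, but each call was lost without 4 of the 6 libraries in turn. Without B73 replicate 1 the adjusted p from limma was 0.0695 for *RR6* and 0.196 for *RR7*. Without *tsh1 tsh4* replicate 2 it was 0.0767 and 0.186, and without *tsh1 tsh4* replicate 3 it was 0.0719 and 0.118, in the same order of genes. *RR6* was also lost without B73 replicate 3 (0.0603) and *RR7* without B73 replicate 2 (0.0691).

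Jasmonate synthesis genes moved in opposite directions. Of 14 listed enzymes 2 rose and 2 fell, with a median log2 fold change of −0.11. *aos1* (GRMZM2G067225), an allene oxide synthase, had 5.29, 2.23 and 2.55 CPM in *tsh1 tsh4* and 0.344, 0.159 and 0.497 CPM in B73 (log2 fold change 2.97, SE 0.39). The lipoxygenases *lox1* (GRMZM2G156861) and *lox11* (GRMZM2G009479) fell by 2.78 and by 1.87 on the log2 scale. *lox1* had 1.04, 0.442 and 0.862 CPM in *tsh1 tsh4* and 7.96, 4.26 and 5.33 CPM in B73. The rise of *aoc1* (GRMZM2G077316), an allene oxide cyclase, was 1.01 on the log2 scale. It was below the fold threshold without B73 replicate 1 (0.83), B73 replicate 3 (0.99) or *tsh1 tsh4* replicate 1 (0.88). *ACO20* (GRMZM2G126732), of the oxidases that release ethylene, rose to 12.9, 17.1 and 22.8 CPM in *tsh1 tsh4*, against 1.47, 1.59 and 3.25 CPM in B73 (log2 fold change 3.06, SE 0.29).

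**Figure D3:**
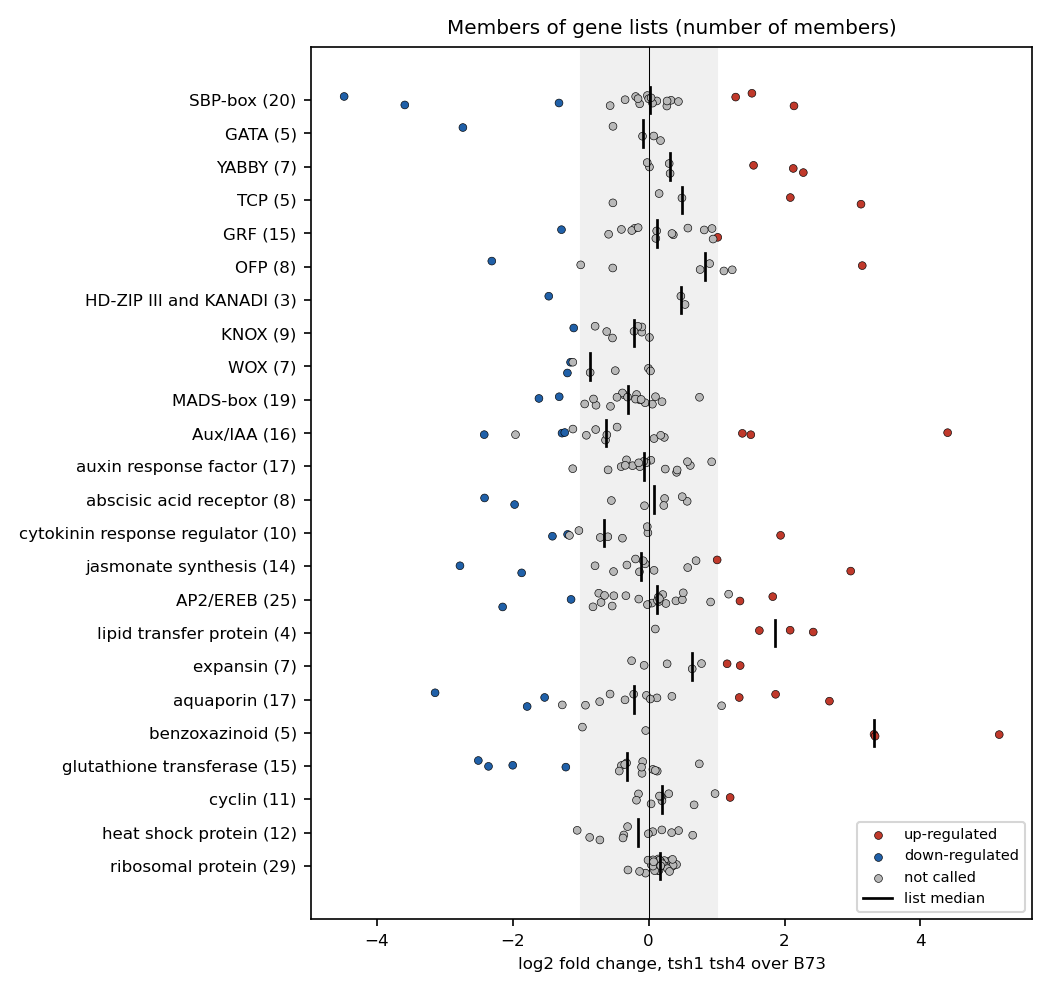
Log2 fold change in *tsh1 tsh4* over B73 (horizontal axis) of each member of 24 gene lists (rows, with the number of members in brackets); red points were up-regulated, blue points down-regulated and grey points not called, black bars are list medians and the shaded band spans −1 to 1. SBP-box and Aux/IAA members lie on both sides, YABBY calls lie on the right only, and the 29 ribosomal protein genes stay within −0.30 to 0.41.

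Of 4 lipid transfer protein genes, whose products carry lipids toward the cuticle, 3 rose and none fell, with a median log2 fold change of 1.86. *plt1* (GRMZM2G101958) stood at 181, 83.0 and 124 CPM in *tsh1 tsh4* and at 34.0, 56.4 and 32.6 CPM in B73 (log2 fold change 1.63, SE 0.28). *plt2* (GRMZM2G010868) and *PLTZ8* (GRMZM2G093270) rose by 2.08 and by 2.42 on the log2 scale. Of 7 expansins, which loosen cell walls, 2 rose and none fell. *expB8* (GRMZM2G013002) averaged 325 ± 50.2 CPM in *tsh1 tsh4* and 146 ± 26.7 CPM in B73 (SD, n = 3 each), and *expB6* (GRMZM2G176595) rose by 1.35 on the log2 scale. None of 4 epidermal *OCL* homeobox genes was called by limma or edgeR, and 1 had an unadjusted p under 0.05. Their summed level was 880 to 1161 CPM in *tsh1 tsh4* and 952 to 1167 CPM in B73.

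Aquaporins, the channels for water and small solutes, had 3 rises and 3 falls among 17 members. *NIP1-1* (GRMZM2G041980) stood at 27.8, 21.1 and 26.8 CPM in *tsh1 tsh4* and at 3.01, 3.86 and 5.02 CPM in B73 (log2 fold change 2.66, SE 0.22). *PIP1-1* (GRMZM2G174807) and *PIP2-2* (GRMZM2G092125), of the plasma membrane class, rose by 1.87 and by 1.33 on the log2 scale. *NIP2-2* (GRMZM2G137108), of the silicon channel class, fell to 0.226, 0.079 and 0.138 CPM in *tsh1 tsh4*, against 3.24, 1.13 and 2.23 CPM in B73 (log2 fold change −3.14, SE 0.45).

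Of 5 benzoxazinoid genes, which make the defence compounds of young maize leaves, 3 rose and none fell. *BX5* (GRMZM2G063756) had 4.43, 6.27 and 3.38 CPM in *tsh1 tsh4* and 0, 0 and 0.120 CPM in B73 (log2 fold change 5.16, SE 0.38). *BX3* (GRMZM2G167549) and *BX4* (GRMZM2G172491), cytochrome P450 genes of the same pathway, averaged 1.42 and 1.56 CPM in *tsh1 tsh4* and 0.0433 and 0.0490 CPM in B73. The glucosyltransferase *bx9* (GRMZM2G161335) was far more abundant and lower in *tsh1 tsh4*, at 94.9, 87.8 and 154 CPM against 194, 245 and 205 CPM in B73. Its log2 fold change of −0.97 missed the fold threshold. Glutathione transferases, which detoxify compounds by conjugation, had 4 falls and no rise among 15 members. *gst20* (GRMZM2G056388) stood at 1.25, 1.01 and 1.67 CPM in *tsh1 tsh4* and at 9.40, 5.97 and 8.36 CPM in B73 (log2 fold change −2.51, SE 0.26). *gst31* (GRMZM2G475059, −2.36) and *gst7* (GRMZM2G028556, −1.999) were below 1.1 CPM in every library. The call of *gst7* was lost without B73 replicate 3 (adjusted p = 0.0701 from limma) and without *tsh1 tsh4* replicate 3 (0.0719). *gst28* (GRMZM2G146475, −1.22, adjusted p = 0.0487 from limma) overlapped between the genotypes and had an adjusted p of 0.0975 with the replicate block. Its call was also lost without B73 replicates 1 (0.232) and 3 (0.102) and without *tsh1 tsh4* replicates 2 (0.242) and 3 (0.124).

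Several lists of basic cell functions gave no call. None of 29 ribosomal protein genes, 12 heat shock protein genes, 5 histone genes and 3 photosynthesis genes was called by limma or edgeR. The share over all genes tested was 5.84%, and 1.86% in the highest class of level. At such shares lists of these sizes would hold few calls or none, so the absence of calls says little. An unadjusted p under 0.05 from limma was reached by 2 ribosomal protein genes, 4 heat shock protein genes, 0 histone genes and 1 photosynthesis gene. The median log2 fold change was 0.16 for ribosomal protein genes and −0.16 for heat shock protein genes. The 3 genes placed under photosynthesis by their names summed to 79.0 to 108 CPM in *tsh1 tsh4* and to 110 to 127 CPM in B73. Most of that sum came from *psat1*, so it says little about photosynthesis. *lhcb5* (GRMZM2G149428) averaged 2.64 CPM in *tsh1 tsh4* and 5.12 CPM in B73, without overlap. Its log2 fold change of −0.99 (adjusted p = 0.0207 from limma) missed only the fold threshold, and that of *PSA2* was 0.01.

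The rows of the deposited table follow the chromosomes, since 99.4% of neighbouring rows that matched a gene table lay on the same chromosome. The surroundings of the mutated genes could therefore be read in order of genes. Within 25 listed genes on either side of *tsh1*, 14 of 50 genes (28.0%) were called and 12 of these fell. Within 50 genes on either side, 24 of 100 (24.0%) were called, 20 of them falls. Beyond 50 and up to 100 genes the share was 3.70% of 54 genes. The share over all genes tested was 5.84%, and 5.64% among the 19366 genes more than 200 rows from both loci.

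The 3 rows just before *tsh1* had no reads in any double mutant library. GRMZM2G026013 stood at 19.9, 13.5 and 14.6 CPM in B73 and was at least 351-fold lower in *tsh1 tsh4*. GRMZM5G847466 stood at 3.24, 2.66 and 2.45 CPM in B73 and was at least 61.1-fold lower, and GRMZM2G026188 stood at 0.786, 0.335 and 0.411 CPM in B73. These 3 genes also had 0 reads in every *tsh1* single mutant library, whereas GRMZM2G026013 stood at 10.9, 13.01 and 11.3 CPM in the *tsh4* single mutant. Their loss thus went with the *tsh1-ref* allele, which carries the deletion. On the other side, GRMZM2G414844 was lower but not absent, at 3.63, 2.81 and 4.07 CPM in *tsh1 tsh4* and 13.9, 15.6 and 13.2 CPM in B73. The steepest fall in the whole comparison, that of GRMZM2G065757, lay 36 rows from *tsh1*. This gene stood at 0.226, 0.221 and 0.224 CPM in *tsh1 tsh4*, against 296, 256 and 243 CPM in B73. It stood at 245, 199 and 279 CPM in the *tsh1* single mutant and at 242, 220 and 188 CPM in the *tsh4* single mutant.

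Around *tsh4* the nearest genes also changed. The gene before it, GRMZM2G487036, had 1.304, 0.490 and 0.966 CPM in *tsh1 tsh4* and 24.1, 9.87 and 12.2 CPM in B73. The gene after it, GRMZM2G419739, had 0.589, 0.663 and 0.414 CPM in *tsh1 tsh4* and 10.4, 10.01 and 11.1 CPM in B73, and the next, GRMZM2G038051, rose to 15.9, 5.56 and 9.57 CPM in *tsh1 tsh4*, against 0.185, 0.211 and 0.051 CPM in B73. Within 50 genes on either side of *tsh4* 9 of 100 genes were called, and beyond 100 and up to 200 genes away 30 of 200 (15%) were called, 13 up and 17 down. On the chromosome of *tsh4* 119 of 1141 matched genes (10.4%) were called. On the chromosome of *tsh1* the share was 5.98%, and on the other 8 chromosomes it was 4.14% to 6.43%. Effects of the mutant proteins and differences carried along with each allele cannot be told apart for the other genes near the loci. The fall of GRMZM2G065757 was seen in neither single mutant, and its cause was not tested. Without the genes within 200 rows of *tsh1* and *tsh4*, an alternative chosen after seeing the data, 1092 genes were called, 513 up and 579 down.

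**Figure D4:**
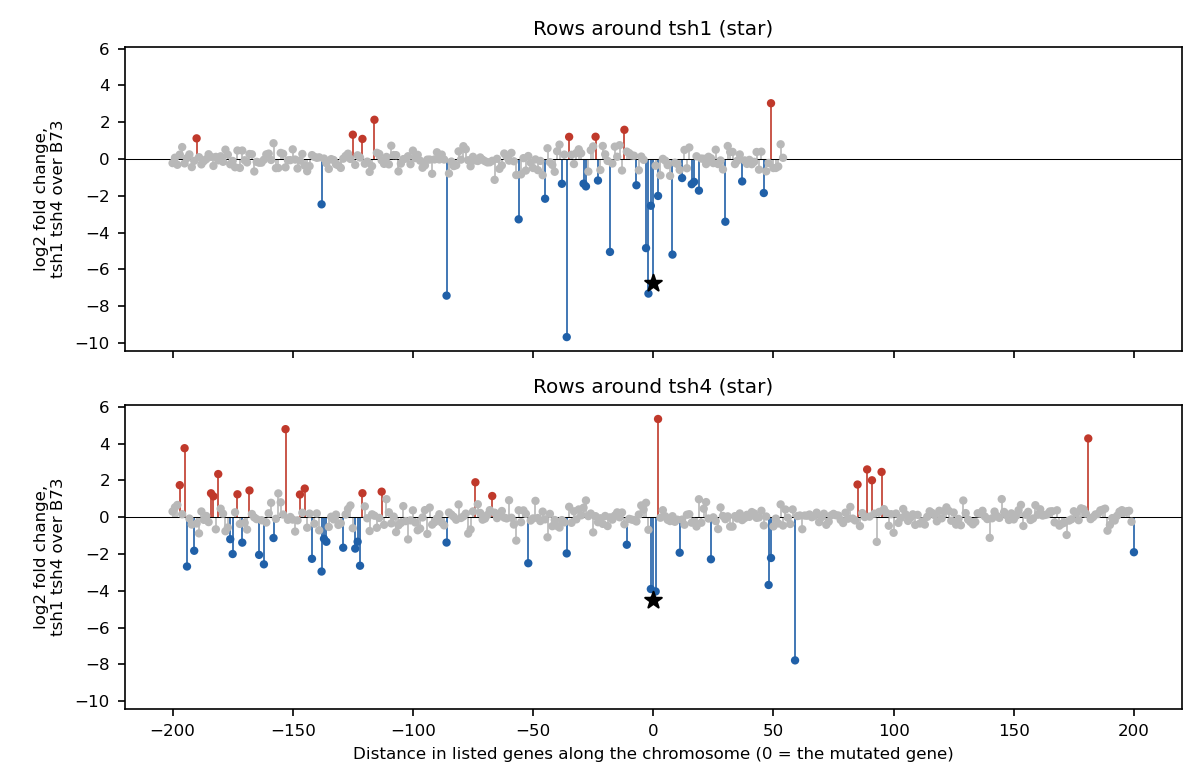
Log2 fold change in *tsh1 tsh4* over B73 (vertical axes) of genes listed within 200 rows of *tsh1* (top) and *tsh4* (bottom), against distance in listed genes (horizontal axis); stars are the mutated genes, red and blue points were called up and down, and grey points were not called. The listed genes of that chromosome end 54 rows after *tsh1*. Calls gather within 50 rows of *tsh1*, where 20 of 24 are falls.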

How the data were processed

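The authors fixed and sectioned ear primordia, captured about 750 µm of bract cells per replicate, amplified the RNA in vitro and sequenced stranded single-end libraries. Per the labels and methods, Trimmomatic 0.36 was used for trimming, STAR 2.6.0a for alignment to B73 RefGen_v3, featureCounts for counting, and edgeR 3.22.5 for filtering and scaling. The strand setting of the counting is not given in the sources used here, so overlapping and antisense genes are uncertain. The deposited signal is normalized CPM per gene and library. In all 6 libraries 100% of the values that were low enough to check were whole multiples of 1 read within 0.0006 CPM, which gave the depth.

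Genes were tested with limma 3.58.1 (lmFit, eBayes with trend, R 4.3.3) on the logarithm (base 2) of CPM plus 0.1. All 12 libraries shared 1 fit, with Benjamini-Hochberg adjustment over 20168 genes; this scale understates changes of weakly expressed genes. Fold changes are on that scale, SE is from the fit, and the fit was tested on simulated data. The simulation changed only genes with a mean above 1 CPM, gave all genes the same dispersion and had no replicate effect. It therefore did not test the recovery of changes in weaker genes. Count models on the recovered reads (edgeR 4.0.16, DESeq2 1.42.0) and other settings were alternatives. Deviations of same-numbered replicates from their genotype means correlated across genotypes (r = 0.65, 0.36 and 0.24 for replicates 1, 2 and 3). Differently numbered pairs ranged from −0.52 to 0.28, the highest of them above the value of replicate 3. A pairing by number was thus uncertain, and a fit with the replicate number as a block was also read.

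Names came from a RefSeq gene table of assembly Zm-B73-REFERENCE-NAM-5.0, to which 14381 identifiers (71.3%) matched; the names can differ from those of the study, and *tsh1* was identified by its known identifier. Genes named are *tsh1*, *tsh4* and their neighbours, genes the study discusses, up to 4 called genes per list (mean of at least 1 CPM, no overlap) and the 6 largest named rises and falls; other genes were named after their values were seen. The comparison and the lists were chosen with earlier results of these data known, and some name patterns were narrowed or added after values were seen.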

Additional observations from a re-analysis of the deposited data

How the results depend on the processing

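A pseudocount of 1 gave 650 called genes (293 up, 357 down), and requiring a mean of 1 CPM gave 763 (349 up, 414 down) because 17272 genes were tested. The other fits kept each count within 1.5 times of 1178, 543 and 635: 1142 with edgeR, 1288 with DESeq2, 1082 with only the 6 libraries, 1112 with the replicate block, and 1625 with no fold threshold. All 650 genes called with a pseudocount of 1, 1108 of those of edgeR and 1153 of those of DESeq2 were among the 1178. Leaving out 1 library gave 952 to 1203 called genes (427 to 572 up, 456 to 725 down), and 734 genes (62.3%) were called in all 6 such fits. Of the 92 called genes named here, 81 were called in every fit that left out a library and 11 lost the call with a pseudocount of 1. The replicate block changed no call of these genes other than those of *ns1* and *gst28*. Without single libraries the log2 fold change ranged between −0.0029 and 0.63 for *ub2*, between −0.18 and 0.49 for *ub3*, and between −0.35 and 0.24 for *kn1*. With amplified RNA and 3 replicates, changes of weakly expressed genes are the least certain.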

Other observations

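The largest named rises were those of *bHLH23* and *MYB59*. *bHLH23* (GRMZM2G178182), a basic helix-loop-helix factor, stood at 176, 117 and 167 CPM in *tsh1 tsh4*, against 0.697, 1.11 and 3.12 CPM in B73, which gave 6.69 on the log2 scale (SE 0.40). *MYB59* (GRMZM2G130149), a MYB factor, had 28.2, 12.7 and 29.6 CPM in *tsh1 tsh4* and 0.265, 0.141 and 0.188 CPM in B73 (log2 fold change 6.23, SE 0.34). Neither gene overlapped between the genotypes. The bHLH genes *bHLH36* (GRMZM2G008691) and *bHLH165* (GRMZM2G145579) changed in opposite directions, with log2 fold changes of 2.72 and −2.29. *GRAS19* (GRMZM2G172657) averaged 27.7 ± 10.6 CPM in *tsh1 tsh4* and 2.90 ± 0.682 CPM in B73 (SD, n = 3 each). Of 25 AP2/EREB genes 2 rose and 2 fell (16.0% called), and of 12 NAC genes 1 rose and 1 fell (16.7%), against 5.84% of all genes tested. Of 11 heat shock factors 1 rose and 1 fell (18.2% called). *HSF2* (GRMZM2G088242) stood at 136, 82.4 and 86.9 CPM in *tsh1 tsh4* and at 11.3, 9.73 and 13.1 CPM in B73, while *Hsf01* (GRMZM2G165998) fell to 82.0, 89.2 and 89.3 CPM in *tsh1 tsh4*, against 277, 346 and 273 CPM in B73. Among the falls, *grp3* (GRMZM2G154954), a glycine-rich protein gene, had 0.301, 0.916 and 0.862 CPM in *tsh1 tsh4* and 28.1, 28.2 and 27.1 CPM in B73 (log2 fold change −5.25, SE 0.29). *gol1* (GRMZM2G080079) fell by 3.63 on the log2 scale.

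Enzymes of carbon and nitrogen use also changed, chosen here after their values were seen. *ivr2* (GRMZM2G089836), a vacuolar invertase, had 4.72, 5.48 and 5.29 CPM in *tsh1 tsh4* and 0.247, 0.282 and 0.565 CPM in B73 (log2 fold change 3.56, SE 0.29). *pck2* (GRMZM5G870932), a phosphoenolpyruvate carboxykinase, had 2.46, 2.05 and 1.41 CPM in *tsh1 tsh4* and 14.2, 11.1 and 16.6 CPM in B73 (log2 fold change −2.77, SE 0.25). Of the glutamine synthetases, *gln2* (GRMZM2G024104) averaged 23.5 ± 11.9 CPM in *tsh1 tsh4* and 8.12 ± 0.973 CPM in B73, and *GLN6* (GRMZM2G050514) averaged 0.685 ± 0.287 CPM in *tsh1 tsh4* and 2.97 ± 1.49 CPM in B73 (SD, n = 3 each). *NAR* (GRMZM5G878558), listed as a nitrate reductase, fell by 1.84 on the log2 scale.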
